A study of Mus musculus with 4 samples.

Results

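The genes described here are the 37 genes of the mouse mitochondrial genome, taken as every gene of the deposited table whose symbol starts with mt-. They were 37 of 55573 genes and comprised 2 rRNA genes, 22 tRNA genes and 13 protein genes. Ribosome profiling (Ribo-seq), which sequences the RNA fragments that ribosomes protect from a nuclease, was applied to primary myoblasts, the cells that muscle stem cells give rise to in culture. Cells were isolated from hind-limb muscle of 3-week-old mice, grown with FGF and sampled on day 2, with 2 libraries labelled WT and 2 labelled KO.

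The KO mice carried Pax7CreERT2/+ and floxed eIF5A f/f alleles and had been given tamoxifen. Cre acts there only in Pax7-expressing muscle stem cells and their progeny, so other cells in such a culture keep the gene. The WT controls were littermates, given as Pax7CreERT2/+ in the main text of the study and as Pax7+/+;eIF5A f/f in a figure legend. The age and culture were shared by both groups. Nothing stated how many animals stood behind a library, so the spread between 2 libraries may be technical.

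The mitochondrial genome is a small circle present in many copies per cell. It is transcribed from both strands into long RNAs, and most of its mRNAs and rRNAs are released where tRNAs are cut out between them. The 2 rRNAs form the core of the mitochondrial ribosome, the tRNAs serve that ribosome alone, and the 13 proteins are subunits of respiratory complexes I, III and IV and of ATP synthase (complex V). All other mitochondrial proteins are made in the cytosol from nuclear genes. Cycloheximide, which held ribosomes in place in these samples, acts on cytosolic and not on mitochondrial ribosomes.

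The libraries held 642429 to 704006 gene-assigned reads, of which 108121 to 259302 lay on mitochondrial genes. Values are given as RPKM, reads per kilobase of gene on the deposited scale, which sets the typical gene equal in all libraries, or as whole reads recovered from RPKM. Recovered reads of different libraries are not on that scale. Eif5a, the targeted gene, had 50 and 73 reads in WT against 130 and 114 in those labelled KO, with RPKM of 34.9 and 65.2 against 60.3 and 59.4. The KO-labelled libraries thus had no less of it, and the groups are called by their labels. The 7 myoblast markers were all above 0 in at least 1 library, and their summed RPKM was 236 and 191 in WT against 115 and 127 in those labelled KO. Most of that sum was Myod1 and Des, while Itga7 and Vcam1 were highest in KO replicate 1, at 29.7 and 20.01 RPKM. Myf5, a marker of the lineage, was at 0 in KO replicate 2. Summed RPKM of 5 fibroblast markers was 405 and 221 in WT against 694 and 292 in those labelled KO. Endothelial, mural, immune and Schwann cell markers, 15 genes in all and none at 0 in all libraries, had summed RPKM of 93.9 to 127, 54.9 to 117, 25.0 to 38.5 and 10.7 to 30.1 over the 4 libraries. The part of these cell types in the results below was not tested, and fewer cells of a type and less RNA per cell cannot be told apart in such samples.

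Reads were spread very unevenly over the 22 tRNA genes, and a few sequences carried most of them. The authors had removed tRNA reads, so the uneven spread and the tRNA genes at 0 are what was left after that step. Sequences are shown first because the tRNA results turn on them. Each is the gene's own strand in the GENCODE vM21 transcripts (GRCm38, chromosome MT), written 5′ to 3′ with the anticodon in capitals. The first 4 took most tRNA reads, mt-Ta stood out in a single library, and mt-Tt had the smallest unadjusted p-value among tRNAs. The final pair, mt-Tf and mt-Tm, had 0 reads in all 4 libraries.
mt-Te (glutamate, MT:14071-14139, minus strand): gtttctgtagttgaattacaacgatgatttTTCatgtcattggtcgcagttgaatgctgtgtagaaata
mt-Ts2 (serine, MT:11613-11671, plus strand): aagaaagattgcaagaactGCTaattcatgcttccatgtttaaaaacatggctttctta
mt-Tp (proline, MT:15356-15422, minus strand): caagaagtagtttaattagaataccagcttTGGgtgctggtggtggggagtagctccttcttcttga
mt-Tc (cysteine, MT:5192-5257, minus strand): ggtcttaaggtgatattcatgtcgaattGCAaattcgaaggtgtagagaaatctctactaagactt
mt-Ta (alanine, MT:5018-5086, minus strand): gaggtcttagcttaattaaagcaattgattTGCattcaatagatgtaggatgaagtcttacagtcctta
mt-Tt (threonine, MT:15289-15355, plus strand): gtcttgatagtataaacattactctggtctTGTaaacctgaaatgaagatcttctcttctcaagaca
mt-Tf (phenylalanine, MT:1-68, plus strand): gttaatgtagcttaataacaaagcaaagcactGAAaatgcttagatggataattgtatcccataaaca
mt-Tm (methionine, MT:3845-3913, plus strand): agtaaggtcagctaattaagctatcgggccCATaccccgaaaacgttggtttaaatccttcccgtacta

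Of the 37 genes, 25 had at least 1 read and 12 were listed at 0 in every library. The 25 were both rRNA genes, 14 tRNA genes and 9 protein genes. All 25 passed the filter of a mean RPKM of at least 1, and each also did so on either group alone. The genes at 0 were the tRNA genes mt-Tf, mt-Tl1, mt-Ti, mt-Tq, mt-Tm, mt-Ty, mt-Th and mt-Tl2 and the protein genes mt-Co2, mt-Atp6, mt-Co3 and mt-Nd4l. A count of 0 allows up to 3 reads, which for a gene of 70 bases is an RPKM of 47.3 to 91.0 depending on the library, and for a gene of 1 kb 3.31 to 6.37.

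**Figure D1:**
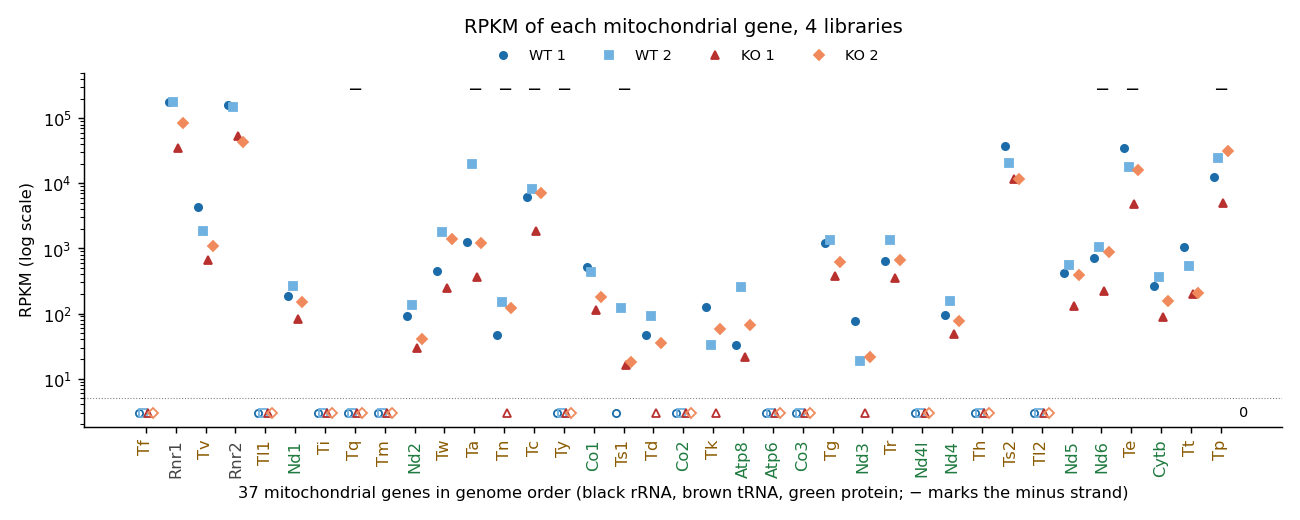
RPKM of the 37 mitochondrial genes in genome order, on a log axis, with 1 marker per library and genes at 0 drawn as open markers below the dotted line. In each library the 2 rRNA genes were the highest, a few tRNA genes followed (in KO replicate 2 mt-Tp at 31266 came near mt-Rnr2 at 42898), 12 genes were at 0 in all libraries, and KO replicate 1 was the lowest library in 23 of the 25 detected genes.

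Mitochondrial RNA took a smaller share of the reads in the libraries labelled KO than in WT. The whole mitochondrial genome received 39.99% and 30.8% of gene-assigned reads in WT replicates 1 and 2, against 15.4% and 19.3% for KO replicates 1 and 2. The 2 rRNAs made up 95.7% to 97.9% of the mitochondrial reads in each library. Their share of all reads was 39.1% (95% Wilson interval 39.0% to 39.3%) and 30.1% (30.0% to 30.2%) in WT against 15.0% (15.0% to 15.1%) and 18.5% (18.4% to 18.6%) in those labelled KO. The groups did not overlap, with means of 34.6% ± 6.38 and 16.8% ± 2.45 (SD, n = 2), and the exact permutation test gave p = 0.333, the smallest value that 2 against 2 libraries allow. Reads of rRNA and tRNA had been removed by the authors, so these are what was left after that step. Nuclear rRNA genes took 0.474% and 0.373% of reads in WT against 0.612% and 0.353% in those labelled KO, and these overlapped.

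The tRNA and protein classes differed less between groups in their share of all reads. The 22 tRNA genes together had 0.605% and 0.476% of reads in WT against 0.211% and 0.588% in those labelled KO, where KO replicate 2 lay between the WT libraries (exact permutation p = 0.667). Without KO replicate 1 the difference between group means turned from -0.141 to 0.0476 percentage points. The 13 protein genes had 0.248% and 0.243% in WT against 0.105% and 0.241% in those labelled KO. Both KO libraries lay below both WT libraries (exact permutation p = 0.333), but KO replicate 2 was close to WT. Its interval, 0.229% to 0.253%, covers counting error only and held both WT values. All reads include those of the mitochondrial rRNAs, which took 39.1% and 30.1% in WT against 15.0% and 18.5% in those labelled KO. Of the protein-coding reads, the mitochondrial protein genes took 0.597% and 0.718% in WT against 0.160% and 0.407% in those labelled KO (exact permutation p = 0.333). On that denominator as well the groups were separate, with means of 0.658% ± 0.0853 and 0.283% ± 0.175 (SD, n = 2).

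**Figure D2:**
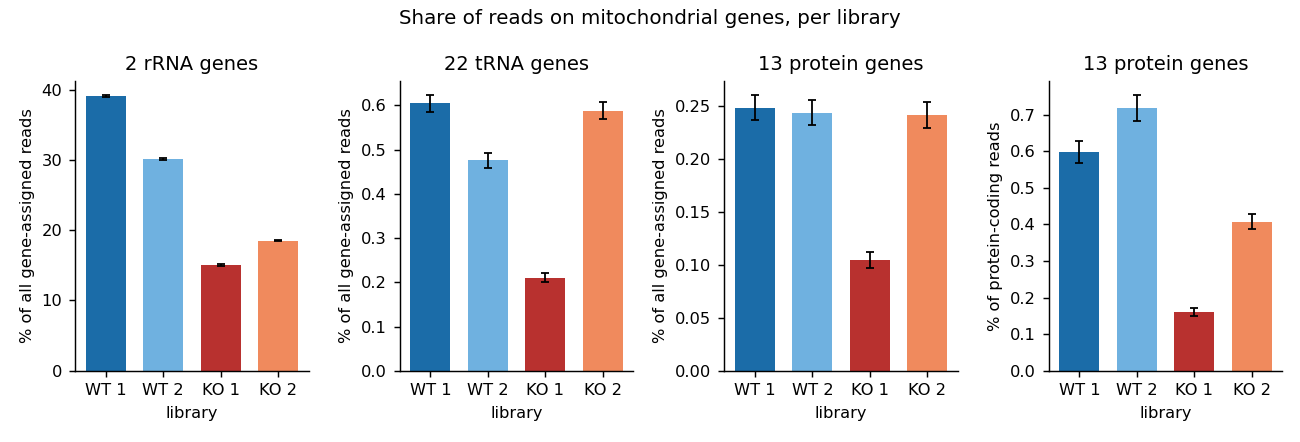
Percentage of reads on each class of mitochondrial genes in each library, with 95% Wilson intervals (counting error only) and, in the last panel, protein-coding reads as the denominator. Both KO bars lay below both WT bars for rRNA and for the protein genes on either denominator. For protein genes of all reads KO replicate 2, at 0.241%, was next to 0.243% in WT replicate 2. For tRNA KO replicate 2 was at 0.588%, between the WT values.

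On the deposited scale nearly every detected mitochondrial gene had a lower mean in the libraries labelled KO. The mean RPKM was lower there for 25 of 25 genes, and the fitted log2 difference of log2(RPKM + 1) was negative for 24. For 15 genes both KO libraries lay below both WT libraries (2 rRNA, 7 tRNA and 6 protein genes), and for none were both above. The 7 tRNA genes include mt-Td, which had 2, 3, 0 and 2 reads, with both groups at or under the floor of 3 reads. The share of all tested genes with both KO libraries below both WT libraries was 20.3%. No mitochondrial gene passed an adjusted p-value of 0.05 in limma, where 0.106% of all tested genes did. At an unadjusted p under 0.05, 4 of 25 were lower (mt-Nd2, mt-Co1, mt-Tt and mt-Cytb), against 4.46% of all tested genes. Voom on the recovered reads called 1 gene, mt-Ta, where it called 0.695% of all genes, and gave 13 at the unadjusted threshold, all lower, against 7.31% of all genes. Without KO replicate 1 limma gave 0 genes at that threshold, against 1.98% of all genes lower, and without KO replicate 2 it gave 8, against 2.82%.

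The median log2 difference was -1.71 for the rRNA genes, -1.45 for the 14 tRNA genes and -1.26 for the 9 protein genes, beside 0.00 for all tested genes and 0.05 for protein-coding genes. When reads were scaled to the library totals instead, the median of all genes moved to 0.50. Relative to it the 3 medians were -1.59, -1.33 and -1.15. On that scale the number of genes with both KO libraries below both WT libraries was 10 rather than 15, against 7.87% of all tested genes, and mt-Tp and mt-Tw joined mt-Ts1 above 0, at 0.15 and 0.01. Without KO replicate 1 the medians of the tRNA and protein genes were -0.57 and -0.65. Of the 22 genes with at least 10 reads, 6 kept a log2 difference within 1.5 times its value whichever library was left out (mt-Rnr2, mt-Tg, mt-Tt, mt-Co1, mt-Cytb and mt-Nd2).

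**Figure D3:**
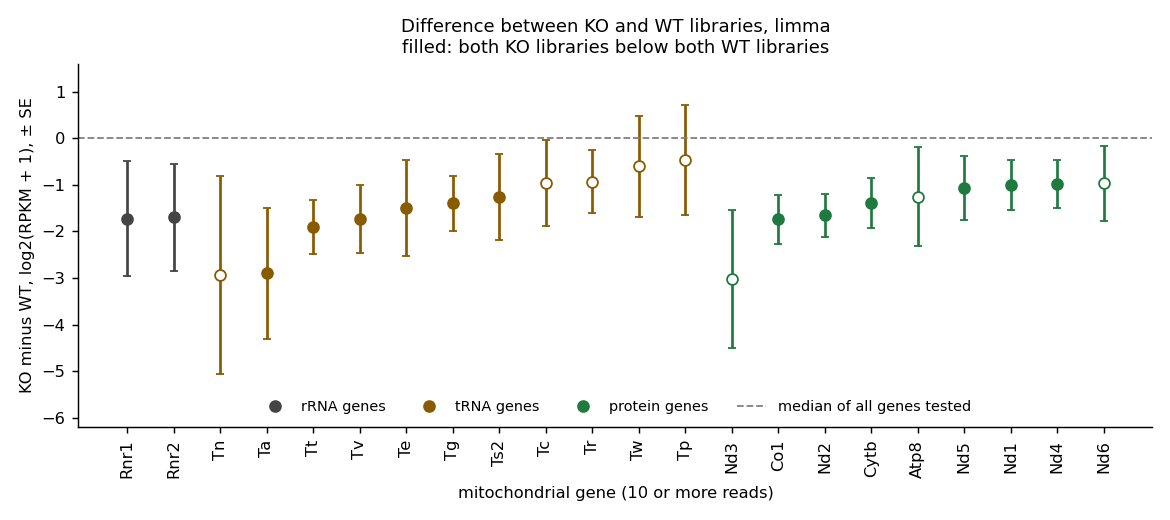
Log2 difference (KO minus WT, log2(RPKM + 1), ± SE from limma) of the 22 mitochondrial genes with 10 or more reads, ordered within each class. All 22 points lay below the dashed line at the median of all tested genes, filled points mark genes whose libraries did not overlap between groups, and no gene passed the adjusted threshold. With scaling to all gene-assigned reads mt-Tp and mt-Tw lay above 0 but below the median of all tested genes, which was 0.50 on that scale.

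The 2 rRNA genes had by far the most reads of the mitochondrial genes, and per length the highest level in each library. mt-Rnr1 (12S, the small-subunit rRNA; ENSMUSG00000064337, MT:70-1024) had 102075 and 81637 reads in WT against 29918 and 65547 in those labelled KO. Its RPKM was 177295 and 181442 in WT against 34540 and 84976 in those labelled KO, a log2 difference of -1.73 ± 1.24 (SE; adjusted p = 0.706, limma with Benjamini-Hochberg adjustment). The WT libraries were close to each other, and both KO libraries were lower but differed 2.46-fold, so that the log2 difference was -1.08 without KO replicate 1 and -2.38 without KO replicate 2. mt-Rnr2 (16S, the large-subunit rRNA; MT:1094-2675) had RPKM of 159059 and 150062 in WT against 52956 and 42898 in those labelled KO, a log2 difference of -1.70 ± 1.15 (adjusted p = 0.697). An SE from this fit borrows from the trend over all genes, so it is not the spread of a gene's own libraries alone. That of mt-Rnr2 was 0.87 with a mean RPKM of at least 5 and 5.19 with no filter, at the same log2 difference. For mt-Rnr2 KO replicate 2 was the lower of the KO pair. The ratio of mt-Rnr2 to mt-Rnr1 RPKM was therefore 0.897 and 0.827 in WT but 1.53 and 0.505 in the libraries labelled KO. The KO values stood on either side of WT, the mean log2 ratio differed by 0.03 between groups (exact permutation p = 1), and leaving out KO replicate 1 or 2 moved that to -0.77 or 0.83.

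Among the tRNAs, mt-Te, mt-Ts2, mt-Tp and mt-Tc, the first 4 sequences printed above, took 90.4%, 71.4%, 90.7% and 92.2% of tRNA reads in WT replicates 1 and 2 and KO replicates 1 and 2. mt-Te had RPKM of 34690 and 17965 in WT against 4842 and 16023 in those labelled KO, a log2 difference of -1.503 ± 1.03 (adjusted p = 0.697). mt-Ts2 had 38095 and 20614 in WT against 11624 and 11835 in those labelled KO, a difference of -1.26 ± 0.92. Both were lower in the KO libraries without overlap, while within WT the level of replicate 2 was 0.518 and 0.541 times that of replicate 1. The difference of mt-Te was -0.64 without KO replicate 1 and -2.37 without KO replicate 2, and that of mt-Ts2 was -0.81 without WT replicate 1. With scaling to all gene-assigned reads the differences of mt-Te and mt-Ts2 were -0.89 and -0.64. On that scale mt-Te overlapped, with 893 of 650210 reads in KO replicate 2 against 584 of 642429 in WT replicate 2.

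mt-Tp and mt-Tc behaved differently from those. mt-Tp had 12329 and 24488 RPKM in WT against 5052 and 31266 in those labelled KO, so that the lowest and the highest library were both labelled KO and differed 6.19-fold. Its log2 difference was -0.47 ± 1.19, and 0.85 without KO replicate 1. mt-Tc had 6183 and 8169 in WT against 1888 and 7035 in those labelled KO, a log2 difference of -0.96 ± 0.92, and its groups overlapped as well. Without KO replicate 1 that difference was -0.0147, and without KO replicate 2 it was -1.91. The share of mt-Tp among tRNA reads ranged from 12.7% in WT replicate 1 to 44.3% in KO replicate 2.

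The difference of mt-Ta rested largely on a single WT library. It had 1274 RPKM in WT replicate 1, 19687 in WT replicate 2, 368 in KO replicate 1 and 1220 in KO replicate 2. It made up 20.9% (95% Wilson interval 19.5% to 22.4%) of tRNA reads in WT replicate 2 and 1.35% to 1.78% in the others. The log2 difference of -2.90 ± 1.41 (adjusted p = 0.676) became -0.93 without WT replicate 2 and -4.88 without WT replicate 1. Voom gave it an adjusted p of 0.0182, the only mitochondrial gene called in any of the fits.

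Of the tRNAs of lower level, mt-Tt, mt-Tv and mt-Tg were below both WT libraries in both KO libraries. mt-Tt (threonine) had 1040 and 539 RPKM in WT against 197 and 203 in those labelled KO, a log2 difference of -1.90 ± 0.58 (unadjusted p = 0.0175, adjusted p = 0.650), from 42, 17, 12 and 11 reads. mt-Tv (valine), which lies between the 2 rRNA genes, had 4351 and 1876 in WT against 671 and 1095 in those labelled KO. mt-Tg (glycine) had 1195 and 1342 in WT against 373 and 619 in those labelled KO. mt-Tr (arginine) and mt-Tw (tryptophan) overlapped, with log2 differences of -0.93 ± 0.68 and -0.60 ± 1.08. Without WT replicate 2 these were -0.39 and 0.39, and without KO replicate 1 they were -0.49 and 0.64.

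The tRNAs with the fewest reads could not be compared at this depth. mt-Tn (asparagine) had 14 reads in all 4 libraries together, none of them in KO replicate 1. The other 3, mt-Ts1, mt-Td and mt-Tk, had 6 to 9 reads and at least 1 group at or under the floor of 3 reads. mt-Ts1 was the exception in sign, with a fitted log2 difference of 0.69 ± 2.06 although its mean RPKM was lower in the libraries labelled KO, because WT replicate 1 was at 0.

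The 9 detected protein genes were lower in mean in the libraries labelled KO, and those with the smallest p-values belonged to complexes I, III and IV. mt-Co1, the catalytic subunit of cytochrome c oxidase (complex IV), had 484 and 318 reads in WT against 156 and 226 in those labelled KO. Its RPKM was 520 and 437 in WT against 111 and 181 in those labelled KO, a mean 3.27-fold lower in the latter and a log2 difference of -1.74 ± 0.53 (unadjusted p = 0.0174, adjusted p = 0.650). The lowest WT library was well above the highest KO library.

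Of complex I, the NADH dehydrogenase, 6 of its 7 mitochondrial subunits were detected. mt-Nd2 had RPKM of 91.1 and 137 in WT against 29.7 and 40.6 in those labelled KO, a log2 difference of -1.66 ± 0.47 (unadjusted p = 0.0125, adjusted p = 0.635). It had the smallest adjusted p of the 25 genes and also the smallest unadjusted one. mt-Nd1 had 187 and 262 in WT against 81.8 and 149 in those labelled KO, a difference of -0.998 ± 0.54. mt-Nd4 had 93.9 and 157 in WT against 48.0 and 77.3 in those labelled KO, a difference of -0.98 ± 0.52. These 3 did not overlap between groups on the deposited scale. With scaling to all gene-assigned reads mt-Nd1 and mt-Nd4 did overlap, with differences of -0.39 and -0.38, and mt-Nd2 did not, at -1.05. Without KO replicate 1 the differences of mt-Nd1 and mt-Nd4 were -0.57 and -0.65, and without WT replicate 2 that of mt-Nd4 was -0.62.

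mt-Nd5 and mt-Nd6, which are encoded on opposite strands and overlap by 14 bases, showed a wide gap within the KO pair. mt-Nd5 had 416 and 557 RPKM in WT against 132 and 394 in those labelled KO, a log2 difference of -1.07 ± 0.69. mt-Nd6, the only protein gene of the minus strand, had 716 and 1043 in WT against 223 and 873 in those labelled KO, a difference of -0.97 ± 0.80. KO replicate 2 lay inside the WT range for mt-Nd6 and just under it for mt-Nd5. Without KO replicate 1 the differences of mt-Nd5 and mt-Nd6 were -0.29 and 0.0150, and without KO replicate 2 they were -1.85 and -1.95. mt-Nd3 had 16, 3, 0 and 6 reads and overlapped.

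mt-Cytb, the cytochrome b of complex III, had 261 and 364 RPKM in WT against 89.6 and 154 in those labelled KO, a log2 difference of -1.38 ± 0.54 (unadjusted p = 0.0427, adjusted p = 0.672), without overlap. mt-Atp8, a small subunit of ATP synthase, had 4, 25, 4 and 11 reads, and its RPKM was 32.5 and 260 in WT against 21.6 and 66.8 in those labelled KO, of which the second lay inside the WT range. Complex I genes took 58.5%, 65.5%, 65.6% and 75.8% of the mitochondrial protein reads in WT replicates 1 and 2 and KO replicates 1 and 2. Complex IV, here mt-Co1 alone, took 30.1%, 20.3%, 21.2% and 14.4%. WT replicate 2 and KO replicate 1 were nearly equal in both shares.

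The groups overlapped in the share of reads by strand. Minus-strand genes (mt-Nd6 and 8 tRNA genes, 6 of them detected) took 44.6% and 54.4% of the tRNA and protein reads in WT against 38.4% and 63.1% in those labelled KO (exact permutation p = 1). Replicate 2 was the higher in each group. Whether reads were counted by strand was not stated, so reads of a gene and of RNA antisense to it cannot be told apart here.

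KO replicate 1 had the least mitochondrial RNA of the 4 libraries. KO replicate 2 was above KO replicate 1 in 24 of 25 detected genes, all but mt-Rnr2, and at least 2-fold above in 13, counting the 4 with no read in KO replicate 1. The median ratio was 1.82 over the 21 genes with a ratio, beside 1.03 over all tested genes. For WT replicate 2 over WT replicate 1 the median was 1.37 beside 1.01. KO replicate 1 was the lowest of the 4 libraries in 23 mitochondrial genes, all but mt-Rnr2 and mt-Ts1, where 24.2% of all tested genes had their lowest value in that library. KO replicate 1 also had the highest summed RPKM of fibroblast markers, 694, with Col3a1 the only one of the 5 that was higher in another library. The part of these cells in the result was not tested. The myoblast markers gave no single order, since Myod1, Des, Pax7 and Cdh15 were lowest there and Itga7 and Vcam1 highest.

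**Figure D4:**
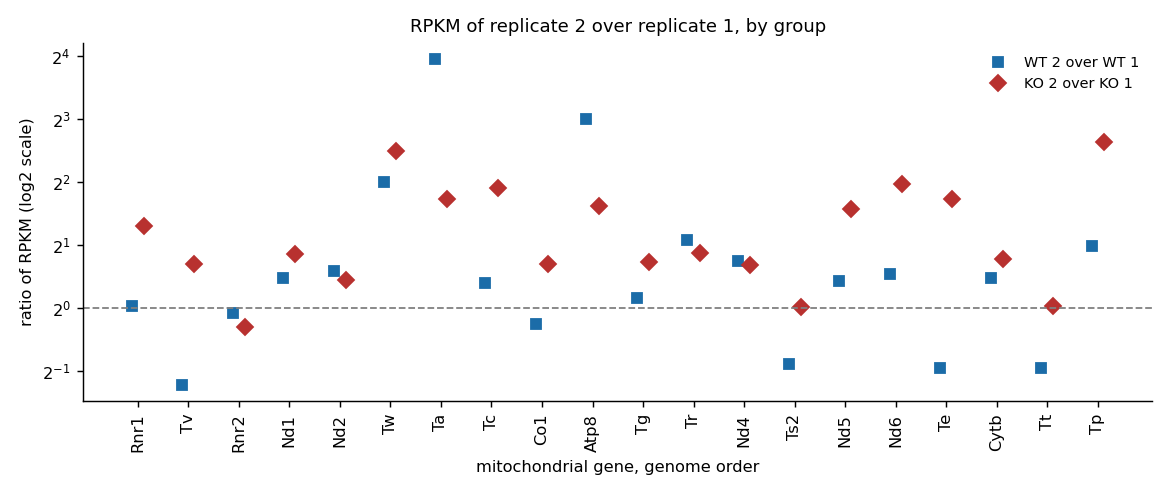
RPKM of replicate 2 over replicate 1 within WT and within KO for each mitochondrial gene with 10 or more reads and all libraries above 0, on a log2 axis with a dashed line at equality. KO ratios were above 1 for all plotted genes except mt-Rnr2 and reached 6.19 for mt-Tp, while the largest WT ratio was 15.5 for mt-Ta.

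The 4 protein genes at 0 were those that shared most of their sequence with nuclear transcripts. Each gene was divided into all windows of 30 bases, about the length of a ribosome footprint, and each window was searched for in all other annotated transcripts of GENCODE vM21. mt-Co2, mt-Co3, mt-Atp6 and mt-Nd4l, the 4 protein genes at 0, had 100%, 99.9%, 99.5% and 98.9% of their windows in another transcript. mt-Nd3, next with 98.1%, had 25 reads. mt-Co1 and mt-Nd4 followed with 64.8% and 62.8%, and the other 6 had 0% to 17.5%. The 8 tRNA genes at 0 did not share this property, since their windows were found nowhere else except 13.2% of those of mt-Ty.

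For these 4 genes, mt-Nd3 and mt-Nd4, the transcripts that held most windows were a run of 7 unprocessed pseudogenes on chromosome 1 (24611535 to 24616197, minus strand, GRCm38), a nuclear copy of part of the mitochondrial genome. They ran from Gm28439, a copy of the start of mt-Nd4, to Gm29216, a copy of the end of mt-Co1. The 7 pseudogenes had 1 read in all libraries together. How the authors treated reads that match several places was not stated, and its part in the zeros was not tested. The start of mt-Co2, a gene at 0, is found unchanged in Gm28661 over 681 aligned bases with 0 mismatches. The start of mt-Nd3 differs from Gm28438 by T3C, the only mismatch over 345 aligned bases (mt-Nd3's base first, positions counted from 1 at the 5′ end of the gene). The first 30 bases of both are shown because they mark a gene with no reads and one with a few, with that base of mt-Nd3 in capitals.
mt-Co2 (MT:7013-7696, plus strand, first 30 bases): atggcctacccattccaacttggtctacaa
mt-Nd3 (MT:9459-9806, plus strand, first 30 bases): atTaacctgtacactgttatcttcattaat

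**Figure D5:**
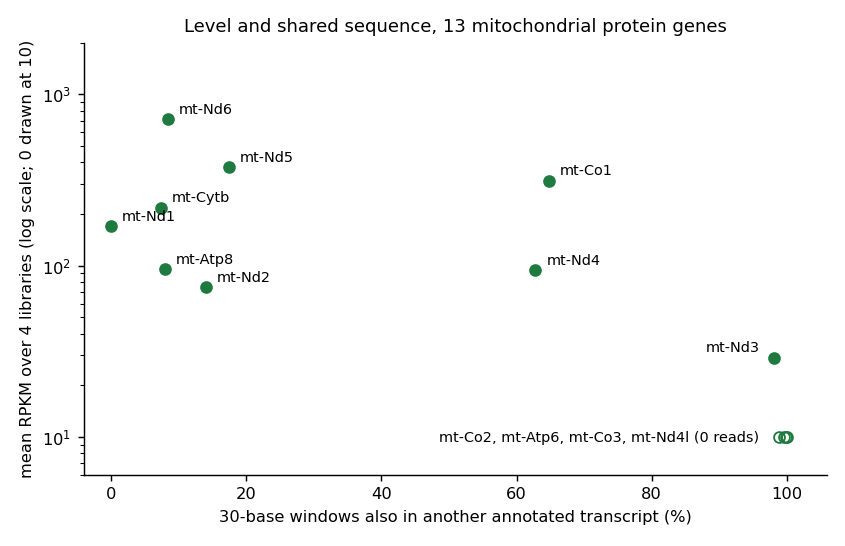
Mean RPKM over the 4 libraries (log axis, genes at 0 drawn as open points at the bottom) against the percentage of 30-base windows found in another annotated transcript, for the 13 protein genes. The 4 genes at 0 lay at 98.9% to 100%, mt-Nd3 at 98.1% was the lowest of the others, and mt-Nd6 was the highest at 8.37%.

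By RPKM, mt-Nd6 was the highest protein gene in each of the 4 libraries, with a mean of 714, followed by mt-Nd5 at 375 and mt-Co1 at 312, which changed places in WT replicate 1. mt-Cytb, mt-Nd1, mt-Atp8, mt-Nd4, mt-Nd2 and mt-Nd3 followed with means of 217, 170, 95.3, 94.1, 74.6 and 29.0. The place of mt-Atp8 rested on WT replicate 2, since it was below mt-Nd4 and mt-Nd2 in WT replicate 1 and KO replicate 1. When reads were divided by the number of windows not found elsewhere, mt-Co1 had 908, 597, 293 and 424 reads per 1000 windows in WT replicates 1 and 2 and KO replicates 1 and 2. mt-Nd6 had 499, 568, 234 and 815, so that mt-Co1 was then above it in all but KO replicate 2. This second scale takes shared windows to yield no reads, which was not tested, and it was chosen after the data were seen. It could not be used for mt-Nd3, whose 25 reads lay on a gene with only 6 such windows and would exceed every other protein gene per window over the 4 libraries together. Among the rRNAs, mt-Rnr2 shared 2.83% of its windows, all of them with Gm20594 on chromosome 6, and mt-Rnr1 shared none.

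Most nuclear genes that build the same complexes had positive log2 differences. Of the tested nuclear subunits of complex I, 28 of 37 had a positive log2 difference, beside 50% of all tested genes and 53.1% of protein-coding genes, with a median of 0.46. For complex III these were 9 of 9 (0.41), for complex IV 10 of 13 (0.48) and for ATP synthase 15 of 16 (0.67). Both KO libraries were above both WT libraries for 14, 4, 4 and 7 of them, beside 20.1% of all tested genes, and below for 4, 0, 2 and 0, beside 20.3%. None passed the adjusted threshold in limma, and 1, 1, 0 and 0 were higher at an unadjusted p under 0.05, beside 2.86% of all tested genes, and 1, 0, 0 and 0 were lower, beside 4.46%. An example was Ndufa5 of complex I, with RPKM of 8.04 and 18.5 in WT against 37.4 and 32.4 in those labelled KO. Uqcrb of complex III had 5.68 and 19.4 in WT against 37.8 and 33.9 in those labelled KO. Reads in WT replicates 1 and 2 were few, 5 and 9 for Ndufa5 and 3 and 8 for Uqcrb. In KO replicates 1 and 2 they were 35 and 27 for Ndufa5 and 30 and 24 for Uqcrb. Cox7a2l, involved in assembling respiratory supercomplexes, had the most negative value among complex IV genes with at least 40 reads, -1.32 ± 0.56 (adjusted p = 0.675).

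Genes of the mitochondrial expression machinery had small positive medians. Of the mitochondrial ribosomal proteins, 54 of 78 tested genes had a positive log2 difference, with a median of 0.23. Both KO libraries were above both WT libraries for 26 of them, beside 20.1% of all tested genes, and below for 9, beside 20.3%. Mrpl52, of the large subunit, had 2.99 and 17.2 RPKM in WT against 45.7 and 51.4 in those labelled KO. This came from 2, 9, 46 and 46 reads, so WT replicate 1 was under the floor of 3 reads. The log2 difference of Mrpl52 was 2.54 ± 0.74 (adjusted p = 0.650, limma). Mrpl49 went the other way, at -1.51 ± 0.63 (adjusted p = 0.675, limma). Median differences were 0.20 over 10 genes of transcription and mitochondrial DNA maintenance, 0.39 over 18 genes of RNA processing and decay, 0.19 over 18 genes of rRNA modification and ribosome assembly and 0.32 over 13 translation factors. Lrpprc, which stabilises mitochondrial mRNAs, had 2.54 and 3.24 RPKM in WT against 10.1 and 5.53 in those labelled KO, a log2 difference of 1.14 ± 0.42 (adjusted p = 0.672). Tfam, which packages mitochondrial DNA and starts its transcription, had 3.36 and 2.87 in WT against 5.71 and 3.63 in those labelled KO, a difference of 0.44 ± 0.39. No gene of these lists passed the adjusted threshold, and at an unadjusted p under 0.05 the numbers higher were 1, 1, 2, 2 and 8 and the numbers lower 1, 0, 1, 0 and 1, for transcription, RNA processing, rRNA modification, translation factors and ribosomal proteins in that order. The share of all tested genes was 2.86% higher and 4.46% lower. Lrpprc belongs to both the RNA processing list and the translation factor list and is counted in each.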

How the data were processed

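Ribo-seq libraries of WT and eIF5A-KO myoblasts (2 each) were grouped by GEO's labels. Per the methods and the labels, the authors removed low-quality, adapter, rRNA and tRNA reads, aligned single-end reads with TopHat2 to mm10 (GRCm38) and counted them per Ensembl gene with HTSeq, versions not given. Stated cycloheximide times differed between sources. The deposited values were RPKM for 55573 genes. RPKM multiplied by gene length and divided by the smallest non-zero product gave whole reads for 100% of values (tolerance 0.01 reads). Recovered depths were 648386 and 642429 (WT) and 704006 and 650210 reads (KO). Intervals (95% Wilson) and the floor of 3 reads cover counting error only.

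The test was limma 3.58.1 (R 4.3.3, lmFit, eBayes with trend) on log2(RPKM + 1). It was two-sided and Benjamini-Hochberg adjusted, over the 11363 genes whose mean RPKM was 1 or more. The log2(RPKM + 1) scale understates changes of low genes. Shares used an exact permutation test over libraries, two-sided. All 37 genes were to be described, with values for those with at least 10 reads. Of the nuclear lists, the 2 largest differences in each direction among genes with at least 40 reads could be named. Transcript sequences came from GENCODE vM21. Members and lists were chosen with earlier results of these data known.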

Additional observations from a re-analysis of the deposited data

How the results depend on the processing

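No adjusted call among the mitochondrial genes appeared under any alternative except voom on recovered reads, which gave 1. The number at an unadjusted p under 0.05 in either direction was 4 (7.32% of all tested genes) and became 1 with scaling to all gene-assigned reads (16.3%) and 13 with voom (11.1%). Without 1 library it ranged from 0 without KO replicate 1 (3.78%) to 8 without KO replicate 2 (5.17%). The median log2 difference of the protein genes was -1.26, moved to -0.65 with scaling to all gene-assigned reads and ranged from -1.87 to -0.65 without 1 library. That of the tRNA genes ranged from -1.91 to -0.57. The number of genes with the KO libraries below the WT libraries was 10 with scaling to all gene-assigned reads (7.87% of all tested genes). Leaving out a library can only keep or raise it, and gave 15 to 24 where all tested genes gave 30.4% to 39.4%. The tRNA share difference ranged from -0.33 to 0.0476 percentage points, the minus-strand share difference from -11.1 to 13.6 and the log2 ratio of mt-Rnr2 to mt-Rnr1 from -0.77 to 0.83 without 1 library. The log2 ratio of mt-Co1 to mt-Nd6 was -1.25 by length and 0.0790 by unshared windows. Of 271 pairs of a named gene and an alternative, the log2 difference could move in 176, since filters and the replicate block leave it as it is. It kept its direction in 167 and reversed in 9, and mt-Ta gained a call with voom. With scaling to all gene-assigned reads these were mt-Tw (0.0116) and mt-Tp (0.15), both below the median of 0.50 for all tested genes on that scale. Without 1 library mt-Tw ranged from -1.85 to 0.64, mt-Tp from -1.78 to 0.85, mt-Tn from -6.41 to 0.54, mt-Nd6 from -1.95 to 0.0150 and mt-Atp8 from -2.74 to 0.22, turning positive without KO replicate 1 (all but mt-Atp8) or WT replicate 2 (mt-Tw, mt-Tp and mt-Atp8). The cause of these reversals was not tested. With the replicate number as a replicate block, 6 mitochondrial genes had an unadjusted p under 0.05 (7.28% of all tested genes) and 0 passed adjustment (0 of all tested genes). Same-numbered libraries deviated with a correlation of 0.138 across 6829 genes, and with 2 pairs the numbers were not taken as pairing. A filter of at least 40 reads, the tRNA median, the count of separate groups and the unshared windows were added after seeing the data. Depth limited the comparison of genes with few reads, and the cause of the 12 genes at 0 was not tested.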
